A study of Mus musculus with 6 samples.

Results

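The genes described here encode fibroblast growth factors (FGFs), their receptors and the genes by which cells restrain or read out the signal. They were chosen by symbol, as the protein-coding genes named *Fgf*, *Fgfr*, *Spry* or *Spred* with a number, together with *Fgfrl1*, *Dusp6*, *Etv1*, *Etv4*, *Etv5*, *Kl*, *Klb*, *Fgfbp1* and *Fgfbp3*. This gave 41 of the 56748 genes in the count table, and the rule uses no measured value. Bulk RNA sequencing was done on primary osteocytes, the cells embedded in bone matrix, which came from the limb bones of mice aged 7 weeks and were kept in culture for 7 days. There were 6 libraries, 3 labelled WT (C57BL/6) and 3 labelled cKO, the *Gsdmd*-deficient genotype. The cKO mice were *Gsdmd* fl/fl; DMP1-Cre, so that the *Dmp1* promoter drives the recombinase which removes floxed parts of *Gsdmd*, the gene of the pore-forming protein gasdermin D. Both genotypes were stimulated alike, first with 10 ng/mL LPS for 3 h and then with 20 µg/mL aluminum hydroxide, which activates the inflammasome, for another 3 h. Unstimulated cultures were not analysed here, and each difference is therefore one between genotypes after stimulation.

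FGF ligands bind receptor tyrosine kinases at the cell surface with heparan sulfate as a cofactor, and the receptors signal through Ras and the kinase ERK. The signal induces transcription factors of the ETS family, such as *Etv4* and *Etv5*, and feedback inhibitors, namely the Sprouty (*Spry*) and Spred proteins and the ERK phosphatase encoded by *Dusp6*. In the skeleton, FGF receptors regulate the growth plate and bone formation, and osteocytes are the main source of the hormone FGF23, which acts with the co-receptor Klotho to lower blood phosphate.

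The labels were checked before the members were compared, and levels are given in counts per 1000000 (CPM). *Gsdmd* itself had 609, 699 and 549 counts in the libraries labelled WT and 885, 937 and 1045 in those labelled cKO, so it was higher where the label says it is deficient (log2 fold change 0.69 ± 0.08 (SE), edgeR quasi-likelihood test with Benjamini-Hochberg adjustment, adjusted p = 2.27e-06). Counts are per whole gene and do not show whether the floxed exons were present. *Xist* had 0 to 4 counts in the WT libraries and 44817 to 51216 in the cKO libraries, while the Y-linked *Ddx3y* and *Eif2s3y* had 0 counts in every cKO library, so sex and genotype cannot be told apart. Of the defining osteocyte markers, *Sost* had 0 counts in every library, *Mepe* at most 2, *Dmp1* at most 6 and *Phex* at most 22. The whole list of 12 osteocyte markers summed to 1035 to 1045 CPM in WT and 884 to 894 in cKO, nearly all of it from *Tnfrsf11b*, *Pdpn*, *Capg*, *Fam20c* and *Ank3*, and 2 of the 6 tested markers rose and 3 fell. All 16 macrophage markers rose by at least 2-fold, and their summed level was 1232 to 1392 CPM in WT and 6582 to 6897 in cKO, with none of them at 0. The summed level of chondrocyte markers was 1973 to 2187 CPM in WT and 2976 to 3169 in cKO. Of 10 tested, 9 rose, 7 of them at least 2-fold, and 1 fell. The sum understates this, since their median log2 fold change was 3.59, against 3.08 for the macrophage markers. Smooth muscle and pericyte markers summed to 1306 to 1507 CPM in WT and 644 to 720.3 in cKO, with 6 of 7 falling and 1 rising. Adipocyte and marrow stroma markers summed to 570 to 651 CPM in WT and 1285 to 1323 in cKO, with 3 of 5 tested rising and 1 falling. Osteoblast markers summed to 16821 to 19033 CPM in WT and 12084 to 12589 in cKO, with 2 of 7 tested rising and 4 falling. Fibroblast and periosteum markers summed to 3373 to 3401 CPM in WT and 2888 to 2915 in cKO, with 3 of 10 rising and 5 falling. Endothelial, skeletal muscle and neutrophil markers each summed to at most 11.2 CPM in a library. The part of these cell types in the results below was not tested, and in bulk RNA fewer cells of a type and less RNA per cell cannot be told apart. The library totals lay between 39566835 and 49734046 counts.

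Among the 41 genes, 24 had enough counts to be tested, as did 17146 genes in all. Of these 24, 7 rose and 10 fell at an adjusted p below 0.05, and 7 did not pass. The share of all tested genes that passed was 20.1% higher and 19.2% lower in cKO. At least 2-fold, *Fgfr2* and *Etv1* rose, where 6.56% of all tested genes did so, and *Fgf18*, *Fgf1* and *Fgf10* fell, where 4.64% did so. The number rising turned on genes close to the limit, since no FGF gene rose by 2-fold under upper quartile scaling. Between 3 and 6 fell by 2-fold when a library was left out, with 6 without WT replicate 3 or cKO replicate 1. Of the 24 genes, *Fgf18*, *Fgf10*, *Fgf1* and *Etv4* were past 2-fold in those fits (*Etv4* log2 fold change -1.06 and -1.19). The remainder were members outside the 24, which entered as the filter let in more genes (17747 and 17768 in all). In 17 of the 24 the libraries of the genotypes did not overlap in CPM, against 49.2% of all tested genes. The median log2 fold change of the 24 was -0.18, with quartiles of -0.81 and 0.33, and that of all tested genes was 0.01, with quartiles of -0.22 and 0.27. Under upper quartile scaling the split over all tested genes was 2799 higher and 4294 lower, in place of 3445 and 3285.

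**Figure D1:**
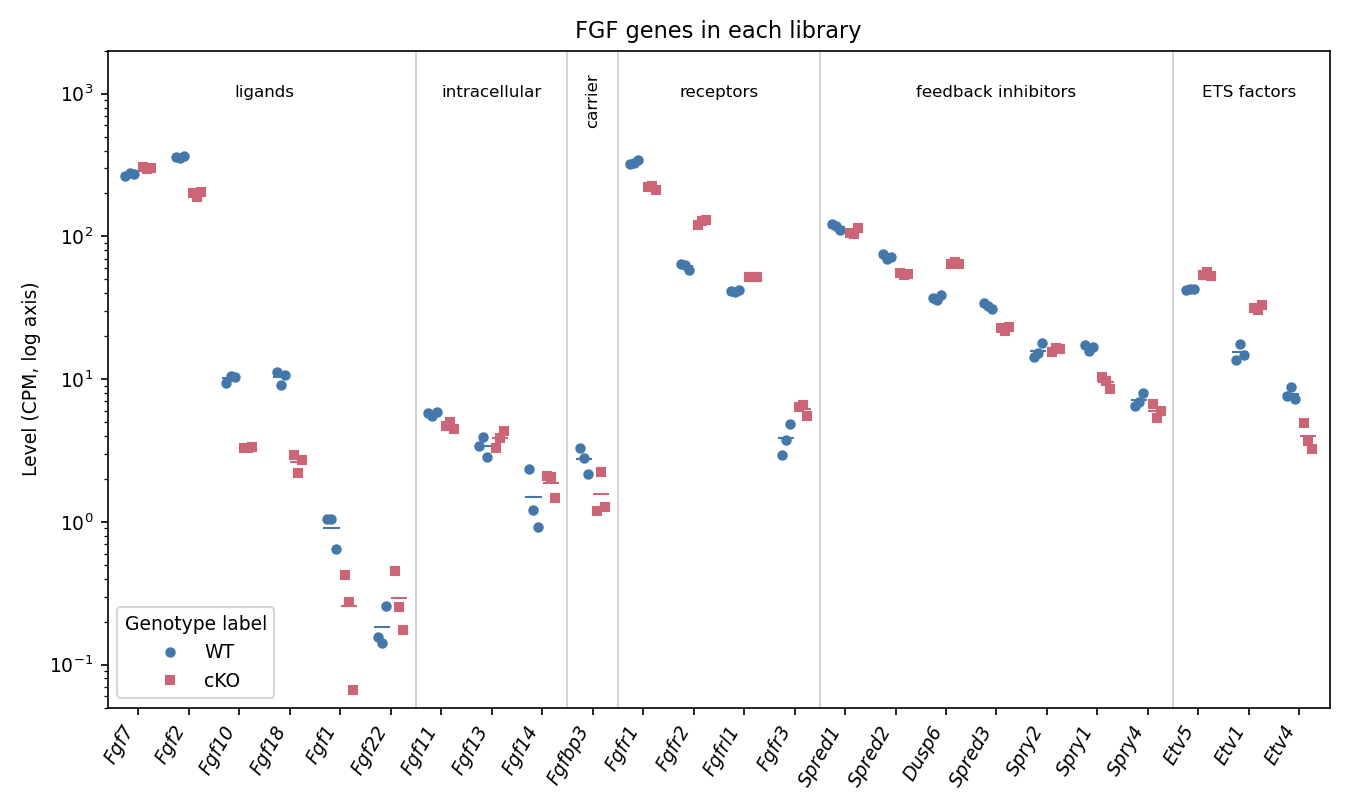
Level of the 24 tested FGF genes in each library in CPM on a log axis, grouped by role, with 1 point per library (blue circles WT, red squares cKO) and a short line at the mean of 3. *Fgf10*, *Fgf18* and *Fgf1* show the widest gaps between the genotype means, with the points of *Fgf1* spread widely, and the points of *Fgf7* nearly touch.

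Among the secreted ligands the data showed an uneven change. *Fgf7*, which signals from stromal cells to epithelia through a splice form of FGFR2, was slightly higher, while *Fgf2*, *Fgf10*, *Fgf18* and *Fgf1* were all lower in cKO. Per length, in transcripts per 1000000 (TPM), *Fgf7* was the most abundant ligand in both genotypes, at 323 ± 7.43 (SD, n = 3) in WT and 349 ± 8.36 in cKO. *Fgf2* was next, at 205 ± 4.24 and 110.0 ± 4.95 TPM. *Fgf18*, *Fgf10* and *Fgf1* were far below them in WT, at 33.5, 8.47 and 0.643 TPM.

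*Fgf7* (ENSMUSG00000027208, chr2:125876578-125933105, mm39, plus strand) measured 264, 279 and 274 CPM in the WT libraries and 308, 295 and 300.3 CPM in the cKO libraries. All cKO libraries lay above all WT libraries, by a small margin. The rise was 0.14 ± 0.04 on the log2 scale (SE, adjusted p = 0.00738, edgeR). This call was lost without WT replicate 1 (log2 fold change 0.11, adjusted p = 0.0753), without cKO replicate 1 (0.13, adjusted p = 0.0523) and under upper quartile scaling (0.08, adjusted p = 0.145).

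*Fgf2* (chr3:37402495-37464257, plus strand), a ligand that binds strongly to heparan sulfate and is stored in the bone matrix, measured 361, 355 and 367 CPM in WT and 203, 188 and 204 CPM in cKO. The genotypes were widely separated relative to the spread within each. *Fgf2* fell by 0.86 on the log2 scale (SE 0.04, adjusted p = 1.41e-11, edgeR). In the reference annotation (GENCODE M39), 45.0% of its exon bases are also exon of *Nudt6* on the opposite strand, and the strand setting of the authors' counting was not given in the sources used here. *Nudt6* itself measured 7.11, 7.25 and 5.51 CPM in WT and 5.92, 5.36 and 5.92 CPM in cKO, with a log2 fold change of -0.21 ± 0.15 (adjusted p = 0.287, edgeR).

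*Fgf18* (chr11:33067430-33097400, minus strand), which controls chondrocyte and osteoblast growth and signals to FGFR3 in cartilage, was lower in every cKO library. Its level was 11.2, 9.13 and 10.6 CPM in WT and 2.95, 2.21 and 2.71 CPM in cKO. No cKO library came near a WT library, and the fitted level was 3.92-fold higher in WT (log2 fold change -1.97 ± 0.15, adjusted p = 1.00e-08, edgeR).

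*Fgf10* (chr13:118806327-118928651, plus strand), the close relative of *Fgf7* that drives limb and lung budding, measured 9.38, 10.6 and 10.4 CPM in WT and 3.30, 3.32 and 3.32 CPM in cKO. The cKO libraries were almost identical to each other and well below WT. The fitted level was 3.05-fold higher in WT (log2 fold change -1.61 ± 0.13, adjusted p = 2.38e-08, edgeR). *Fgf7* and *Fgf10* therefore changed unequally inside each library, with a per-length ratio of *Fgf7* to *Fgf10* of 38.2 ± 1.49 (SD, n = 3) in WT and 129 ± 3.20 in cKO, a quantity that no scaling between libraries can alter. The ratio of *Fgf7* to *Fgf2* was 1.58 ± 0.06 in WT and 3.17 ± 0.10 in cKO.

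*Fgf1*, a ligand able to bind every FGF receptor, was near the lower end of what could be tested, with 47, 52 and 25 counts in WT and 18, 11 and 3 in cKO. The lowest WT library was still above the highest cKO library, and the spread was wide within both. Its log2 fold change was -1.84 ± 0.54 (adjusted p = 0.0118, edgeR), and the call was lost without cKO replicate 3 (-1.37, adjusted p = 0.0572). *Fgf22* had 7 to 10 counts in WT and 8 to 19 in cKO and did not pass (log2 fold change 0.67, 95% interval -0.63 to 1.98). Of its exon bases, 81.7% are also exon of *Rnf126* on the opposite strand, so its counts are uncertain.

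*Fgf23*, the phosphate hormone of osteocytes, was not tested because of its low counts. It had 14, 34 and 8 counts in WT and 6, 0 and 0 in cKO. Every WT library was above every cKO library, at a depth where the highest value amounts to 34 counts in a library of 49734046. With no filter beyond 1 count in any library, its log2 fold change was -3.02 ± 0.89 (SE, adjusted p = 0.00370, edgeR). *Fgf5* had 14, 14 and 0 counts in WT and 0 in each cKO library, so 1 WT library did not differ from the cKO libraries, although it also passed without the filter (adjusted p = 0.00496, edgeR). These were the only members kept out of the main test that passed without the filter. For *Fgf2* the adjusted p was 2.26e-86 in that fit and 1.41e-11 in the main one (edgeR). P-values without the filter can therefore not be set beside those of the main test, and neither *Fgf23* nor *Fgf5* is counted among the genes that fell.

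The other ligands were at or near the limit of detection. *Fgf9* had at most 17 counts in a library, *Fgf17* at most 11, *Fgf21*, an endocrine FGF of liver and fat, at most 8, and *Fgf20* at most 7. *Fgf3*, *Fgf4*, *Fgf6*, *Fgf8*, *Fgf15* and *Fgf16* had 0 counts in all 6 libraries. A count of 0 allows up to 3 counts, which is 0.0605 to 0.0773 CPM depending on the library, or 6 counts and 0.121 to 0.155 CPM if both mates of a pair were counted. These limits cover counting error only.

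The intracellular FGFs are not secreted and act inside the cell, for example on sodium channels. *Fgf11*, *Fgf13* and *Fgf14* were tested and none passed. *Fgf11* measured 5.78, 5.56 and 5.90 CPM in WT and 4.73, 4.98 and 4.49 CPM in cKO, so that its libraries did not overlap while its test stayed above the limit (log2 fold change -0.28, 95% interval -0.59 to 0.03, adjusted p = 0.146, edgeR). *Fgf13*, which lies on the X chromosome, measured 2.83 to 3.91 CPM in WT and 3.30 to 4.34 in cKO, with overlapping libraries and an interval of -0.23 to 0.59. *Fgf14* ranged from 0.927 to 2.35 CPM in WT and 1.47 to 2.09 in cKO, with an interval of -0.38 to 1.02, and shares 51.5% of its exon bases with *Itgbl1* on the opposite strand. *Fgf12* had 8 counts in 1 WT library and 0 in the others.

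Of the carrier proteins that release FGFs from the matrix, *Fgfbp3* measured 3.31, 2.80 and 2.16 CPM in WT and 1.19, 2.24 and 1.28 CPM in cKO. The highest cKO library lay above the lowest WT library. It fell by 0.82 on the log2 scale (SE 0.28, adjusted p = 0.0271, edgeR), a call that was lost without WT replicate 1, WT replicate 2, cKO replicate 1 or cKO replicate 3 (log2 fold changes -0.69, -0.82, -0.66 and -0.69, with adjusted p = 0.110, 0.0531, 0.112 and 0.113). *Fgfbp1* had at most 4 counts in a library.

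**Figure D2:**
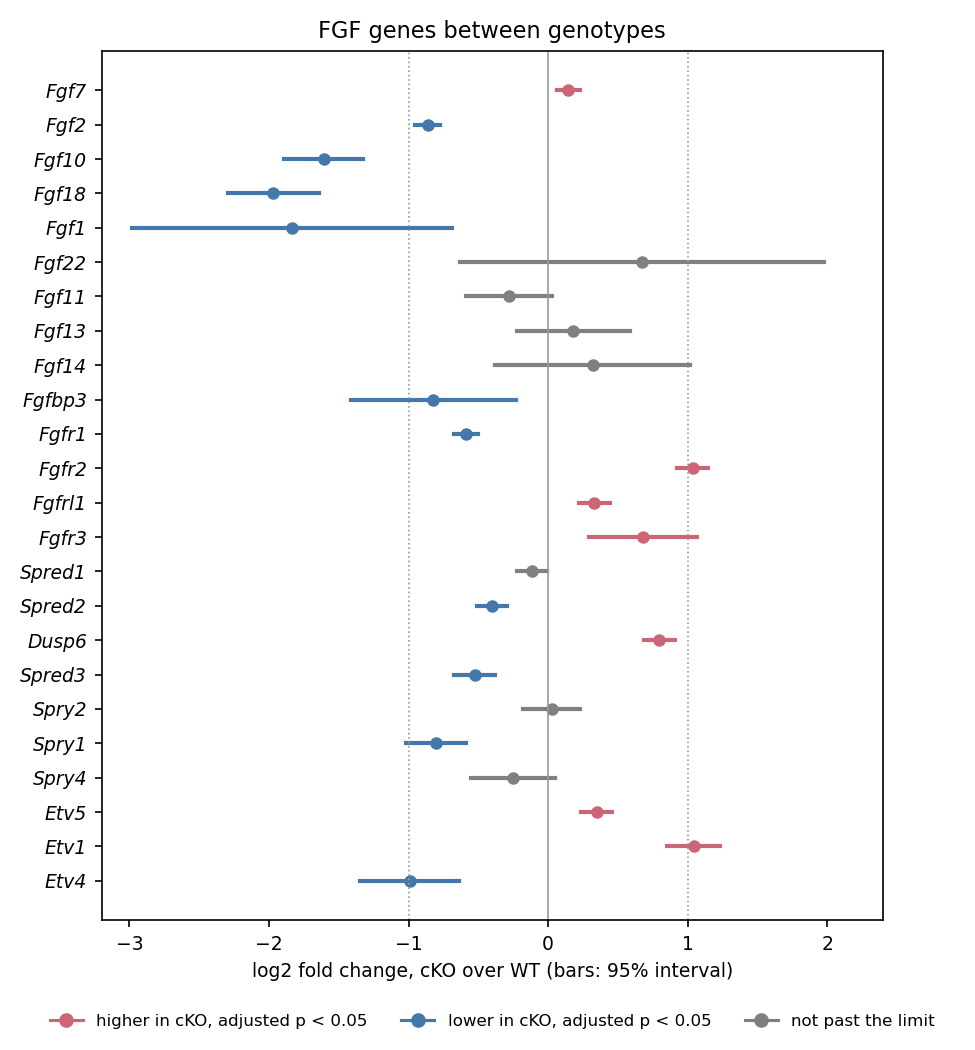
Log2 fold change of cKO over WT for the 24 tested FGF genes, with 95% intervals from edgeR, in the order ligands, intracellular FGFs, carrier, receptors, feedback inhibitors and ETS factors. Dotted lines mark a 2-fold difference, red genes rose and blue genes fell at an adjusted p below 0.05, and grey genes did not pass. Receptors, feedback inhibitors and ETS factors each hold genes on both sides of 0.

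The receptors changed in opposite directions. *Fgfr1*, the main receptor of mesenchymal cells, was lower in cKO, while *Fgfr2*, *Fgfr3* and the decoy-like receptor *Fgfrl1*, which lacks the kinase domain, were higher. *Fgfr1* (ENSMUSG00000031565, chr8:26003670-26065734, plus strand) measured 323, 328 and 341 CPM in WT and 223, 225 and 210.5 CPM in cKO. Its libraries did not overlap, and it fell by 0.59 on the log2 scale (SE 0.04, adjusted p = 2.63e-09, edgeR).

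*Fgfr2*, a receptor of osteoprogenitors and, in another splice form, of epithelia, measured 64.3, 62.7 and 58.2 CPM in WT and 120.4, 129 and 130.4 CPM in cKO. Each cKO library held close to double the WT level, and the fitted rise was 2.05-fold (log2 fold change 1.04 ± 0.05, adjusted p = 2.59e-11, edgeR). The count table gives this gene a span of chr7:129764181-132725079 on the minus strand, and 2.77% of its exon bases are also exon of *Ctbp2* on the same strand. Gene counts cannot separate the splice forms of *Fgfr2*.

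*Fgfrl1* measured 41.3, 40.8 and 41.9 CPM in WT and 52.0, 51.6 and 52.2 CPM in cKO. The libraries of each genotype lay close together and the genotypes did not overlap, and its rise was 0.33 ± 0.05 on the log2 scale (adjusted p = 5.71e-05, edgeR). *Fgfr3*, the receptor that restrains chondrocyte growth, was low, at 2.95, 3.75 and 4.84 CPM in WT and 6.35, 6.61 and 5.48 CPM in cKO. The libraries did not overlap, and the log2 fold change was 0.68 ± 0.18 (adjusted p = 0.00649, edgeR). *Fgfr4* had at most 6 counts, and the co-receptors *Kl* and *Klb*, needed by endocrine FGFs, had at most 2 and 1.

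The makeup of the receptor RNA was therefore different between genotypes. As a share of the summed receptor counts per kilobase in a library, *Fgfr1* made up 61.0% ± 0.716 (SD, n = 3) in WT and 41.2% ± 1.14 in cKO. *Fgfr2* made up 10.9% ± 0.726 and 22.7% ± 0.995, *Fgfrl1* 27.1% ± 0.267 and 34.5% ± 0.660, and *Fgfr3* 0.978% ± 0.225 and 1.59% ± 0.136. Libraries of the genotypes did not overlap in any of these shares. The ratio of *Fgfr1* to *Fgfr2* per length was 5.26, 5.47 and 6.12 in the WT libraries and 1.94, 1.83 and 1.69 in the cKO libraries. Per length, *Fgfr1* stayed the most abundant receptor in every library.

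**Figure D3:**
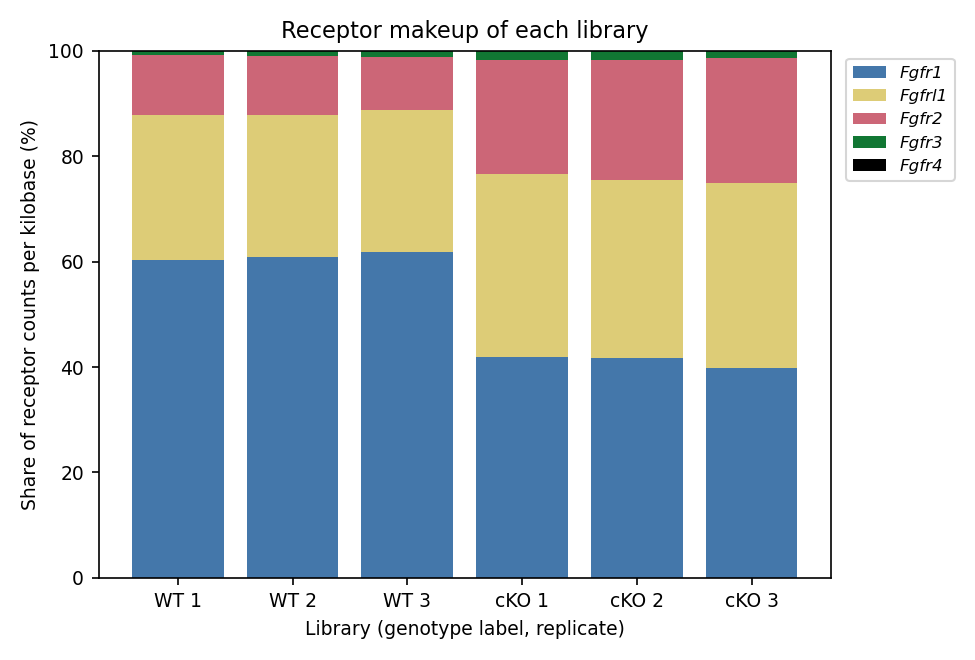
Share of each FGF receptor in the summed receptor counts per kilobase of a library, in percent, for the 3 WT and 3 cKO libraries. *Fgfr1* (blue) takes 61.0% on average in WT and 41.2% in cKO, and *Fgfr2* (red) 10.9% and 22.7%. *Fgfr4* is too low to be seen.

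The feedback inhibitors moved in both directions. *Dusp6* rose, *Spry1*, *Spred2* and *Spred3* fell, and *Spred1*, *Spry2* and *Spry4* did not pass. *Dusp6* (ENSMUSG00000019960, chr10:99099093-99103351, plus strand), which encodes the phosphatase that inactivates ERK in the cytoplasm, measured 37.0, 35.9 and 38.6 CPM in WT and 63.9, 65.9 and 63.7 CPM in cKO. The genotypes were far apart relative to the spread within each, with a rise of 0.80 ± 0.05 on the log2 scale (adjusted p = 1.11e-09, edgeR). The annotation places *Gm56965*, a long noncoding RNA on the opposite strand, over 20.2% of its exon bases.

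*Spry1* (chr3:37694096-37698747, plus strand), an inhibitor of Ras activation by growth factor receptors, measured 17.3, 15.8 and 16.8 CPM in WT and 10.3, 9.78 and 8.52 CPM in cKO. All cKO libraries were below all WT libraries, and it fell by 0.80 on the log2 scale (SE 0.10, adjusted p = 4.42e-06, edgeR). *Dusp6* and *Spry1* thus changed by nearly the same amount in opposite directions, and their per-length ratio was 2.07 ± 0.08 (SD, n = 3) in WT and 6.31 ± 0.61 in cKO. *Spry2* measured 14.4 to 18.0 CPM in WT and 15.6 to 16.6 in cKO (log2 fold change 0.03, 95% interval -0.18 to 0.23), and *Spry4* 6.49 to 7.99 CPM in WT and 5.33 to 6.65 in cKO (-0.25, interval -0.55 to 0.05). The libraries overlapped in both.

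The Spred proteins block the activation of Raf by Ras. *Spred2* measured 75.6, 69.0 and 71.3 CPM in WT and 55.2, 53.7 and 54.6 CPM in cKO, and it fell by 0.40 on the log2 scale (SE 0.05, adjusted p = 4.98e-06, edgeR). *Spred3* measured 33.9, 32.3 and 31.2 CPM in WT and 22.7, 21.6 and 23.4 CPM in cKO, and it fell by 0.53 (SE 0.07, adjusted p = 7.45e-06, edgeR). In neither gene did the libraries of the genotypes overlap. *Spred1* measured 122, 119 and 111 CPM in WT and 106, 105 and 114 CPM in cKO, with an adjusted p of 0.0801 (log2 fold change -0.12, edgeR). It passed under upper quartile scaling (adjusted p = 0.00707), in DESeq2 (0.0469), without WT replicate 3 (0.0115) and without cKO replicate 3 (0.0414), each time as lower in cKO.

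The ETS factors of the *Etv4* group, which mediate much of the transcriptional response to FGF, were also split. *Etv1* measured 13.7, 17.8 and 14.7 CPM in WT and 31.4, 30.7 and 33.1 CPM in cKO. The lowest cKO library was well above the highest WT library, and the fitted rise was 2.06-fold (log2 fold change 1.04 ± 0.09, adjusted p = 4.21e-08, edgeR). *Etv5*, at 42.1, 42.7 and 42.8 CPM in WT and 54.0, 56.0 and 52.6 CPM in cKO, rose by 0.35 ± 0.05 on the log2 scale (adjusted p = 3.55e-05, edgeR). *Etv4* measured 7.64, 8.79 and 7.21 CPM in WT and 4.97, 3.70 and 3.24 CPM in cKO. It fell by 0.99 on the log2 scale (SE 0.17, adjusted p = 1.19e-04, edgeR), just short of 2-fold, while *Fgfr2* and *Etv1* were just past it. The per-length ratio of *Etv5* to *Etv4* was 4.11 ± 0.41 (SD, n = 3) in WT and 10.7 ± 2.15 in cKO.

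Promoter sequence was examined because members of one role moved in opposite directions. RefSeq promoters (GRCm38.p6 annotation, 250 bases before to 50 after each start site) were found for 32 of the 41 genes, and all 41 of their entries had 1 exact match in GRCm39. The motifs searched on both strands were the ETS core CCGGAA, the AP-1 site TGANTCA, the cyclic AMP response element TGACGTCA and the GC box GGGCGG, and matches of different motifs may share bases. The ETS core occurred in 5 of the 41 entries and in 14.9% of 32851 mouse promoters, the AP-1 site in 2 and in 7.81%, the response element in 0 and in 1.79%, and the GC box in 24 and in 35.7%. Several genes have more than 1 entry. Among genes that rose the ETS core was found in 1 of 7 with an entry (*Fgfrl1*), among those that fell in 0 of 7, and among those that did not pass in 1 of 6 (*Spry2*). In the genes not tested it was found in 3 of 12 (*Fgf5*, *Fgf12* and *Fgfr4*). The 250 bases before a start site are shown for *Fgf7*, the most abundant ligand per length. They are also shown for *Dusp6*, the feedback inhibitor of this family that rose, and for the rising gene with an ETS core. All are on the plus strand of GRCm39, with ETS cores and GC boxes in capitals. *Fgf7* is at chr2:125876328-125876577, *Dusp6* at chr10:99098843-99099092 and *Fgfrl1* at chr5:108841845-108842094.
Fgf7: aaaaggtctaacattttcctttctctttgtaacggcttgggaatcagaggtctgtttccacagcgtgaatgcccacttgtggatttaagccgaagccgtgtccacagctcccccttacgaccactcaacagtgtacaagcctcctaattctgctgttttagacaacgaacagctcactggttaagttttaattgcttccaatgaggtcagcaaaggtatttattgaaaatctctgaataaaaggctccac
Dusp6: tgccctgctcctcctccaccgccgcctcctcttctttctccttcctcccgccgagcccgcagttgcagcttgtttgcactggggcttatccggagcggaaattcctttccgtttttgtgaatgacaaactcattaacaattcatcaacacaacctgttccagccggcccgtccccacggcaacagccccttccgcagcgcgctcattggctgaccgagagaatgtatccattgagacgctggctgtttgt
Fgfrl1: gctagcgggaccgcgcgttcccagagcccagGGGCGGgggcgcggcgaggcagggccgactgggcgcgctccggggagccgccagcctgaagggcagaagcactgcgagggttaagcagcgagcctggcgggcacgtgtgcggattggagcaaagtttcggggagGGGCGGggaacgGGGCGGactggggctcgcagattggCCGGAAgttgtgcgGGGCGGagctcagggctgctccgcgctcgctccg
The *Fgfrl1* window holds 1 ETS core and 4 GC boxes at a GC content of 73.6%, whereas those of *Dusp6* (56.4%) and *Fgf7* (43.6%) hold none of the searched letters. Of the bases shown, 60 in *Fgfrl1*, 25 in *Dusp6* and 0 in *Fgf7* lie in annotated exons of the gene (GENCODE M39). The *Fgfrl1* window lies inside the span that the count table gives this gene (chr5:108840248-108854790). A match is a description of these windows only.

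Genes that carry the signal from receptor to ERK changed by less than 2-fold. Of 27 in this list, all tested, 9 rose, 7 fell and 11 did not pass, the median log2 fold change was -0.01 and none reached 2-fold. Thus 59.3% of this list passed, against 39.3% of all tested genes (20.1% higher and 19.2% lower). In the lists of the next paragraphs, in order, 75.9%, 91.3% and 80% of the tested genes passed. Without cKO replicate 1, 4 fell. *Frs2*, the adapter that docks on FGF receptors, measured 120, 114 and 110 CPM in WT and 84.5, 81.1 and 81.4 CPM in cKO. It fell by 0.47 on the log2 scale (adjusted p = 3.14e-07, edgeR), with no overlap between genotypes. *Map2k1*, a kinase that activates ERK, fell by 0.38 (adjusted p = 2.59e-06) and the phosphatase gene *Ptpn11*, needed for Ras activation, by 0.31 (adjusted p = 7.94e-06). *Gab1*, an adapter, rose by 0.64 (adjusted p = 1.13e-05), the Raf kinase gene *Braf* by 0.36 (adjusted p = 5.83e-06) and *Cbl*, which marks receptors for degradation, by 0.33 (adjusted p = 4.98e-06).

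Of 34 genes that build, edit or carry heparan sulfate, 29 were tested, of which 7 rose, 15 fell and 7 did not pass, with a median of -0.19. *Ext1*, a polymerase of the chain, measured 312, 303 and 326 CPM in WT and 186, 186 and 191 CPM in cKO and fell by 0.74 on the log2 scale (adjusted p = 8.98e-11, edgeR). *Sulf2*, which removes sulfate groups from the chain outside the cell, fell by 0.65 (adjusted p = 1.24e-09) and *Gpc6*, a glypican core protein, by 0.61 (adjusted p = 1.90e-08). *Xylt1*, which starts the chain on its core protein, measured 63.2, 57.0 and 61.9 CPM in WT and 139.8, 138.2 and 139.7 CPM in cKO, a log2 rise of 1.20 (adjusted p = 1.63e-12, edgeR). Its relative *Xylt2* rose by 0.81 (adjusted p = 6.11e-09) and the sulfotransferase gene *Hs6st2* by 0.74 (adjusted p = 5.76e-10). Both enzymes that start the chain were therefore higher while a polymerase that extends it was lower.

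The other feedback and target genes of ERK numbered 23, all tested, with 8 rising, 13 falling and 2 not passing, and a median of -0.23. *Fos*, an immediate early gene, measured 13.0, 13.1 and 13.1 CPM in WT and 62.9, 66.1 and 63.2 CPM in cKO, a log2 rise of 2.29 ± 0.06 (adjusted p = 5.13e-15, edgeR). *Ier2*, another immediate early gene, rose by 1.13 (adjusted p = 1.71e-10) and the survival gene *Mcl1* by 1.07 (adjusted p = 1.39e-12). *Egr2*, a zinc finger factor, measured 11.1, 11.8 and 12.4 CPM in WT and 3.54, 3.67 and 4.31 CPM in cKO and fell by 1.62 (adjusted p = 1.61e-08, edgeR). *Spp1*, the gene of osteopontin, fell by 0.64 (adjusted p = 4.24e-10) and *Errfi1*, an inhibitor of the EGF receptor, by 0.55 (adjusted p = 1.11e-09). Of the 11 feedback genes of this list, 4 rose, 5 fell (1 of them at least 2-fold) and 2 did not pass, with a median of 0.05. Those that rose were *Dusp4*, *Dusp5* and *Dusp7*, which encode phosphatases of the same family as *Dusp6*, by 0.87, 0.40 and 0.70 (adjusted p = 1.48e-07, 0.00548 and 8.65e-09, edgeR), and *Flrt3*, a membrane protein that binds FGF receptors, by 0.71 (adjusted p = 0.00111). These 4 were named after their values were seen, and *Dusp9*, also in the list, was not among them. Of the 5 that fell, only *Errfi1* is named here. Early genes induced by ERK were found on both sides.

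Genes that handle phosphate and FGF23 were listed as 18 symbols, of which 17 were found and 10 tested. Of these, 4 rose, 4 fell and 2 did not pass, with a median of -0.17. The number rising was 2 under upper quartile scaling and without cKO replicate 3. *Pcsk5*, a proprotein convertase, measured 85.9, 74.9 and 79.2 CPM in WT and 40.9, 40.8 and 38.6 CPM in cKO and fell by 1.00 on the log2 scale (adjusted p = 1.63e-10, edgeR). The phosphate importer gene *Slc20a2* fell by 0.95 (adjusted p = 4.71e-11) and *Enpp1*, which makes pyrophosphate, by 0.55 (adjusted p = 3.42e-09). *Fam20c*, the kinase that phosphorylates FGF23, rose by 0.45 (adjusted p = 1.31e-06), the phosphate exporter gene *Xpr1* by 0.28 (adjusted p = 8.21e-05) and *Vdr*, the vitamin D receptor gene, by 0.20 (adjusted p = 0.00646). *Galnt3*, which protects FGF23 from cleavage, had 374 to 447 counts in WT and 334 to 382 in cKO and did not pass (log2 fold change -0.14, adjusted p = 0.424, edgeR).

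**Figure D4:**
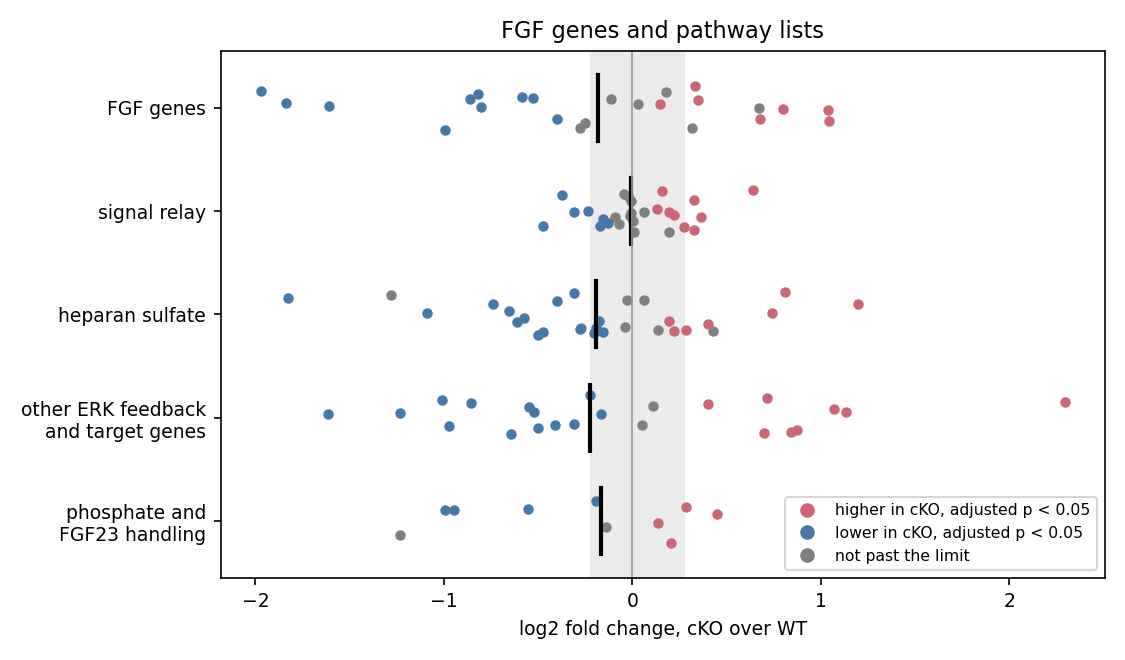
Log2 fold change of cKO over WT of every tested gene among the FGF genes and in 4 related lists, with 1 point per gene, red where it rose, blue where it fell and grey where it did not pass. Black bars are medians (-0.18, -0.01, -0.19, -0.23 and -0.17 from top to bottom), and the grey band spans the quartiles of all tested genes (-0.22 to 0.27). The genes of the signal relay lie closest to 0.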

How the data were processed

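Directional libraries were sequenced as 150 bp pairs, and the authors aligned the trimmed reads to mm39 with HISAT2 (2.0.5 in the submitters' processing notes) and counted them on genes with featureCounts (1.55.0-p3 there, another release in the methods). They deposited raw counts per gene, without normalization, and a gene length in bases. Small counts were mostly even (63.4% to 65.7% of those from 1 to 10), which is what counting both mates would give.

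From the counts, edgeR 4.0.16 in R 4.3.3 was run with filterByExpr, TMM scaling, glmQLFit and glmQLFTest on all 6 libraries, and the design held genotype alone. P-values were adjusted over 17146 genes. CPM use the TMM-scaled library size, and TPM use the deposited gene length. The procedure was tested on simulated counts. It recovered 68 of 102 genes with a 2-fold change and 94 of 98 with a 4-fold change, with 7 false calls. A gene that did not pass may therefore still differ. The labels do not say that the libraries came from separate animals or cultures, so p-values measure only the spread between these libraries. Replicates differed beyond sampling noise, and 6 libraries were counted. Genes named beyond the family were the 3 rising and the 3 falling genes with the smallest p in each of 4 lists, genes overlapping a member, and *Gsdmd*, sex-linked genes and osteocyte markers as checks. *Galnt3*, *Dusp4*, *Dusp5*, *Dusp7*, *Flrt3* and *Spata5* were named outside this rule, after their values were seen. The members and lists were chosen with earlier results of these data known. Alternatives were other scalings, filters and tools (DESeq2 1.42.0, limma 3.58.1), a replicate block, halved counts and each library left out.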

Additional observations from a re-analysis of the deposited data

How the results depend on the processing

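Over the 24 tested genes and their alternatives, 342 of 357 values kept their direction and their side of the limit, and 19 genes did so throughout. *Spry2*, which did not pass, turned negative under upper quartile scaling (-0.041), without WT replicate 1 (-0.055) and without WT replicate 2 (-0.013), its range with a library left out being -0.055 to 0.122. The count of FGF genes rising at least 2-fold went from 2 to 0 under upper quartile scaling and was 1 to 2 with a library left out, 1 without WT replicate 1 or WT replicate 3. The count falling at least 2-fold went from 3 to 5 with no filter, through *Fgf5* and *Fgf23*, and was 3 to 6 with a library left out, 6 without WT replicate 3 or cKO replicate 1 and 5 without cKO replicate 2. The counts of 5 and 6 include members outside the 24. Rising phosphate genes went from 4 to 2 under upper quartile scaling and were 2 to 4 with a library left out, 2 without cKO replicate 3. Falling signal relay genes numbered 7, and 4 to 8 with a library left out, 4 without cKO replicate 1. Beyond the construction of each alternative, the cause was not tested. By counts in place of counts per kilobase, *Fgfr1* took 75.5% of receptor reads in WT and 54.3% in cKO. *Fgfr2* took 14.1% and 31.3%, and *Fgfrl1* 9.45% and 12.8%, so *Fgfr2* was above *Fgfrl1*, the reverse of the order per kilobase. That order depends on the deposited length of *Fgfrl1*, which is 2782 bases, whereas its exons in GENCODE M39 cover 7082.

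Same-numbered libraries did not deviate together (correlations of -9.23e-05, 0.00116 and -0.0136), so the replicate numbers were not treated as pairs. With the replicate block, 3298 genes rose and 3098 fell in place of 3445 and 3285, and 7 FGF genes rose and 10 fell. Depth limits the ligands and co-receptors with few counts.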

Other observations

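*Fgf2* and *Spry1*, which fell by 0.86 and 0.80 on the log2 scale, lie near each other on chromosome 3, with 229839 bases between them. Both protein-coding genes listed between them are given here. *Nudt6*, which overlaps the end of *Fgf2*, did not pass (log2 fold change -0.21, adjusted p = 0.287, edgeR). *Spata5*, named here after its values were seen, measured 18.8, 20.1 and 19.1 CPM in WT and 13.8, 13.8 and 15.1 CPM in cKO, a log2 fold change of -0.44 ± 0.08 (SE, adjusted p = 4.25e-04, edgeR).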
